A study of Mus musculus with 6 samples.

Results

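The microRNAs described here belong to the miR-297, miR-466, miR-467 and miR-669 families of the mouse, most of which are made from 1 intron of Sfmbt2. Their rows were taken by name, whatever letter, copy number or arm followed the family number. This gave 80 mature names of 1915 in the table, and 157 of its 2061 entries. Where several entries carried 1 name, the entry with the most reads was kept. Of the 80 names, 20 fell into 8 groups whose counts lay within 1% of each other in every library. Such names were taken to share their reads and were counted once, under the name with the most reads, which left 68 separate measurements.

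Small RNAs were sequenced from iBN cells, a mouse suspension line that the labels describe as a granulocyte-macrophage progenitor and that carries an inducible system for PU.1, a transcription factor of myeloid cells. All cells grew with 1 ng/ml GM-CSF and 10% fetal bovine serum. The uninduced group (3 libraries) received no inducer, and the induced group (3 libraries) was kept in 1000 ng/ml doxycycline for 72 hours. Each group holds trials 1, 2 and 3, and no label says that these were separate cultures. The p-values thus cover just the library-to-library spread, which may be technical. Doxycycline-treated cells without the inducible system were not analysed here, so the drug and PU.1 cannot be told apart.

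Sfmbt2 encodes a Polycomb-group protein and is imprinted in the mouse, with the paternal copy expressed in extraembryonic tissues. The intron that holds these hairpins is a rodent-specific block of tandem duplications, and its microRNAs are best known from placenta and embryonic stem cells. A microRNA hairpin is cut into a duplex whose strands, the 5p and 3p arms, are loaded into Argonaute to different extents, and the seed (bases 2 to 8 of the mature strand) leads target pairing. Copies of a hairpin that differ by few bases give mature strands that a short read may not tell apart.

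By name, 82 hairpins of the families were placed in the RefSeq gene table of GRCm38.p6 (mm10, the build in the submitters' processing notes, is the same assembly). Of these, 72 lie within Sfmbt2 (chromosome 2, 10370510 to 10595253, plus strand), between 10466663 and 10518279, a stretch of 51617 bases. Host genes, strands and exon overlap were taken from the GENCODE annotation. All 72 are on the strand of Sfmbt2, 0 overlap an annotated exon of the gene, and the nearest exons on either side leave an intron from 10461473 to 10523944. There are 5 hairpins of miR-297, 24 of miR-466, 14 of miR-467 and 29 of miR-669 in it. The order miR-467, miR-466, miR-669 recurs 12 times, and the starts of the 10 mir-467a copies lie a median of 2462 bases apart.

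**Figure D1:**
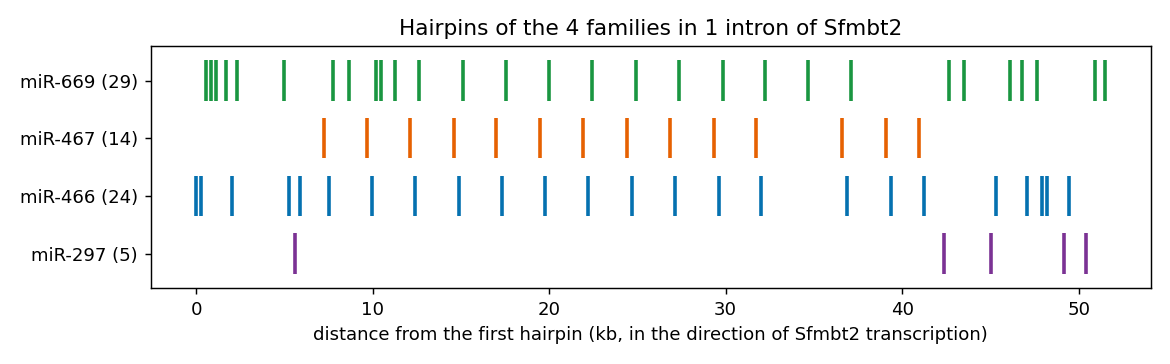
Start of each hairpin along the Sfmbt2 intron, in kb from the first, with 1 row per family and the number of hairpins in parentheses. The 14 hairpins of miR-467 sit in the middle of the block, each mir-467a copy followed by a miR-466 hairpin.

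The other 10 hairpins lie on chromosomes 3, 5, 7, 9, 10, 11 and 13. For 9 names the hairpins come from these sites alone: both arms of miR-466i (chromosome 13, 17747473 to 17747593, in an intron of Cdk13 and antisense to it), miR-466k (chromosome 3, 85467377 to 85467498, in an intron of Gm37240 and antisense to it), miR-466j (chromosome 10, 60960723 to 60960844, in no annotated gene), miR-466q, miR-467f, miR-467g, miR-467h and miR-669n. They serve as members with the family name but another locus. The RefSeq sequence table (GRCm38.p6) matched 8 of the 80 names, all of this kind. Their mature strands are shown 5′ to 3′, with the seed in capitals, to show how simple these 8 sequences are. None of them is from the Sfmbt2 intron.
miR-466i-3p: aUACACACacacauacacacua
miR-466k: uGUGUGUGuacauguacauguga
miR-466j: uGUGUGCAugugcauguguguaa
miR-467h: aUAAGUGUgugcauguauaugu
miR-467f: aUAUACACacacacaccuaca
miR-467g: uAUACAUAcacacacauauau
miR-669n: aUUUGUGUguggaugugugu
miR-466q: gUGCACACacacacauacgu
Each of the 8 matched strands holds UGUGUG or its complement CACACA (overlapping matches allowed), against 40 of the 1674 distinct mature strands in the table (2.39%). The 8 seeds are all different, so a shared family number here does not mean a shared seed. Of the 1915 names in the count table, 1623 matched a sequence, and among these 1 name that is no member has one of the 8 seeds, miR-668-5p, which has the seed of miR-467h and 0 reads. The 72 members without a matched sequence were not searched.

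After 1 entry was kept per name, the libraries held 8697384 to 13946613 reads. The separate measurements of the families came to 0.457%, 0.460% and 0.407% of these totals in uninduced trials 1, 2 and 3. In the induced trials they came to 0.457%, 0.399% and 0.393%. Names that share reads were counted once in the families, while the totals hold every name, so these percentages are low estimates by name. As a check on the kind of cell, 5 haematopoietic and myeloid microRNAs were summed: miR-142a-3p, miR-142a-5p, miR-223-3p, miR-146b-5p and miR-155-5p. Their sum was 197015 to 256613 CPM (counts scaled to library size, here with TMM factors) uninduced and 205070 to 255131 CPM induced. Most of it was miR-146b-5p, with means of 142594 CPM uninduced and 146951 CPM induced. Whether these levels mark the labelled progenitor stage was not tested. Embryonic stem and trophoblast microRNAs were near 0, with reads for 3 of 28 names, led by miR-295-3p, miR-294-3p and miR-292b-5p, and a sum of at most 1.11 CPM. The Dlk1-Dio3 microRNAs, another large imprinted cluster, had reads for 10 of 90 names and a sum of at most 1.28 CPM, led by miR-127-3p, miR-381-3p and miR-411-5p. The Sfmbt2 families were therefore detected in cells in which these other lists were nearly silent, and the part of any other cell type in their level was not tested.

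Together the 4 families summed to 4425 CPM ± 54.3 in uninduced and 4139 CPM ± 159 in induced cells (SD, 3 libraries each). CPM of different microRNAs, and of the arms of a hairpin, are compared here as reads, and how evenly different strands entered the libraries was not tested. Counted this way, the miR-669, miR-467 and miR-466 families were alike in level, and miR-297 was far lower. In the uninduced libraries miR-669 summed to 1462 CPM ± 130, miR-467 to 1421 CPM ± 64.6, miR-466 to 1401 CPM ± 85.9 and miR-297 to 141 CPM ± 5.42 (SD, n = 3 each). The first 3 do not differ beyond their spread. Their order rests on how copies are counted: with all entries of a name summed, the uninduced levels of miR-669, miR-467, miR-466 and miR-297 were 8861, 6044, 1870 and 312 CPM, and with each name counted 2333, 2077, 3366 and 211 CPM. In all 3 ways miR-297 was lowest. A few measurements carried much of the signal: the 5 highest of the 68 made up 50.4% of the level summed over the 4 families. The highest measurement made up 48.0% of the level of miR-297, 34.1% of miR-466, 32.4% of miR-467 and 34.1% of miR-669. Of the 68, 11 averaged at least 100 CPM, 26 between 10 and 100, and 29 less than 10, and 2 (miR-466q and miR-669j) had 0 reads, which allows up to 0.215 to 0.345 CPM in a library. Such limits cover counting error only, because no molecular identifiers are described.

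**Figure D2:**
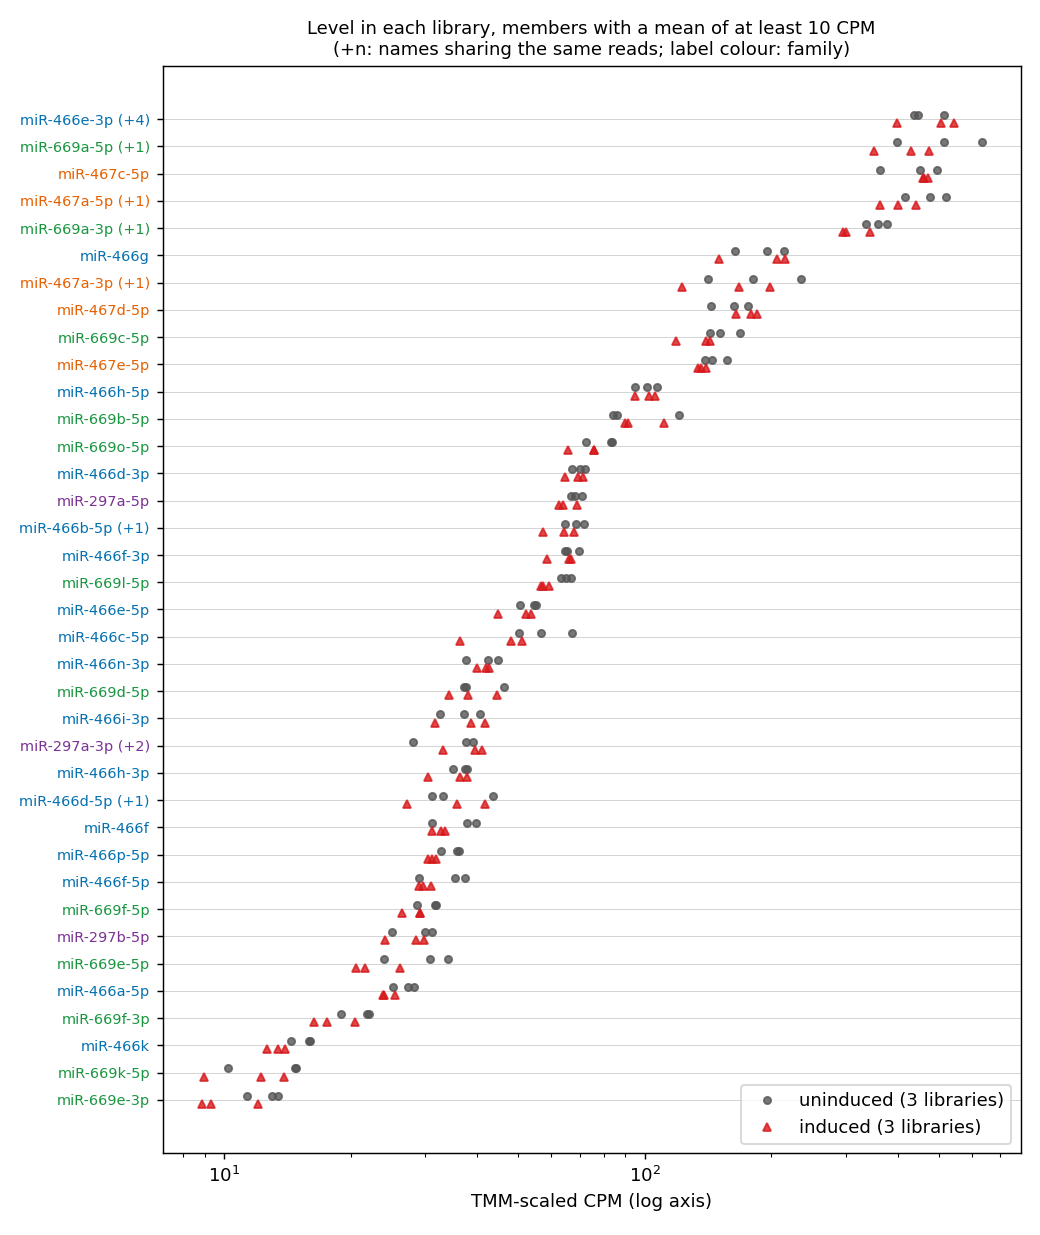
TMM-scaled CPM in each library (log axis; grey circles uninduced, red triangles induced) for the 37 measurements with a mean of at least 10 CPM, with label colours by family. The leading 5 lie between 296 and 631 CPM, and the symbols of the groups overlap for most members.

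In miR-466, the 3p strand shared by miR-466a, b, c, e and p led. It had 446, 437 and 514 CPM in uninduced and 542, 397 and 505 CPM in induced trials 1, 2 and 3. The groups overlap, and the order of the trials differs between them. The strand ranked 87th of 1915 mature names by mean level. Next in the family came miR-466g (195, 164 and 215 CPM uninduced, 216, 150 and 207 induced) and miR-466h-5p (107, 94.7 and 101 uninduced, 103, 106 and 94.6 induced). The opposite arm miR-466e-5p had 54.6, 50.6 and 55.3 CPM uninduced and 52.2, 44.8 and 53.7 induced.

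In miR-467, miR-467c-5p had 451, 361 and 495 CPM uninduced and 471, 462 and 459 induced. The 5p strand shared by miR-467a and miR-467b had 476, 521 and 415 CPM uninduced and 400, 442 and 363 induced. These levels are close, although miR-467c-5p has 1 entry in the table and the miR-467a and miR-467b strand 11. The 3p strand shared by miR-467a and miR-467d had 235, 181 and 141 CPM uninduced and 198, 168 and 123 induced, with trial 3 lowest in both groups. miR-467d-5p had 163, 144 and 176 CPM uninduced and 179, 165 and 185 induced.

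In miR-669, the 5p strand shared by miR-669a and miR-669p had 513, 631 and 397 CPM uninduced and 429, 474 and 351 induced, lower after induction in each trial although the groups overlap. The 3p strand shared by miR-669a and miR-669o had 377, 358 and 335 CPM uninduced and 342, 296 and 300 induced. In miR-297, miR-297a-5p had 66.9, 68.3 and 71.0 CPM uninduced and 63.9, 62.6 and 69.0 induced, and the 3p strand shared by miR-297a, b and c had 39.2, 37.7 and 28.1 uninduced and 39.5, 41.0 and 33.1 induced. Among the 66 measurements with reads, those with several entries had a median of 38.0 CPM (20 measurements) and those with 1 entry 10.1 CPM (46), with a Spearman rho of 0.34 between entries and level. The points share libraries and, in part, reads.

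Of the 9 names from other loci, 2 averaged at least 10 CPM. miR-466i-3p had 37.3, 32.6 and 40.6 CPM uninduced and 38.6, 31.7 and 41.7 induced, miR-466k 15.9, 14.4 and 16.0 uninduced and 13.5, 12.7 and 14.0 induced, and miR-466j 2.78, 3.45 and 2.84 uninduced and 3.65, 3.25 and 4.19 induced. miR-467f, miR-467g, miR-467h and miR-669n each had 53 reads or fewer in all libraries together. Of the 8 strands printed above, miR-466i-3p was the most abundant and miR-466q had 0 reads. Whether the reads of miR-466i-3p came from its site on chromosome 13 was not tested.

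The families used their arms differently. With shared names counted once and names without an arm left out, the 5p arm took 85.6% ± 3.33 of the reads of miR-467 uninduced and 86.9% ± 2.61 induced, 71.2% ± 2.17 and 70.8% ± 2.38 of miR-669, 75.1% ± 4.33 and 72.6% ± 3.04 of miR-297, and 36.6% ± 1.14 and 34.5% ± 2.21 of miR-466 (SD, n = 3 each). The shares of the induced and uninduced libraries overlapped in each family. The 3p arm led in miR-466 in each of the 6 libraries. With each name counted, the 5p share over all libraries was 16.2% for miR-466 and 48.7% for miR-297, so that the leading arm of miR-297 turned to 3p, while it was 81.8% for miR-467 and 66.2% for miR-669.

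By hairpin, 16 names had at least 100 reads, both arms in the table and neither arm sharing reads. The 5p arm led in 9 of 9 of miR-669, 2 of 2 of miR-467 and 1 of 5 of miR-466, and the groups overlapped in all 16. The extremes were miR-669c, with 9068 reads on 5p and 44 on 3p (99.5% 5p), and miR-466i, with 113 and 2401 (4.49%). miR-466h (73.6%) was the miR-466 hairpin with a leading 5p arm, and miR-466m (475 and 513 reads) was nearly even. For miR-669d, miR-669m and miR-466m the shares are uncertain: miR-669d-3p and miR-669d-2-3p, and miR-466m-5p and miR-669m-5p, differ by at most 1 read in every library. The last pair crosses the family border. The share of miR-466f is uncertain too. miR-466f-5p (2037 reads) and miR-466f, a name without an arm (2197 reads), had close counts and were counted apart. Both entered the miR-466 sum, and whether they are the same strand was not tested.

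No member passed the main test of a change after induction, which modelled the group alone. With the trial as a block 3 passed, all lower, as described below. Of the 68 measurements, 57 passed the filter on low counts and were tested in 1 edgeR fit with all other microRNAs (quasi-likelihood, p-values adjusted by Benjamini-Hochberg over 525 names). Of these 57, 0 passed at an adjusted p of 0.05, against 6.10% of all names tested (3.43% higher and 2.67% lower). In this fit, without a block, an unadjusted p under 0.05 was reached by 0 of the 57 and by 20.8% of all tested. With the trial as a block, 9 of the 57 reached an unadjusted edgeR p under 0.05. The share of all tested names was not counted for that fit. DESeq2 and limma-voom, likewise run without a block, also called 0. The smallest edgeR adjusted p among the members was 0.260.

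Log2 changes, induced over uninduced, ran from -0.38 to 0.30, and 0 of 57 went past 0.5 either way, against 20.8% of all names tested. The median of the absolute log2 change was 0.12 for the 37 members of at least 10 CPM and 0.18 for all 323 names at that level. For each of those 37 the 95% interval of the log2 change stayed within 1 unit of 0, the widest bounds being -0.79 and 0.50. A change of 2-fold was thus outside the interval of each member at that level. Over all 57 the bounds ran from -1.20 to 0.87, and 52 intervals stayed within 1 unit of 0.

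**Figure D3:**
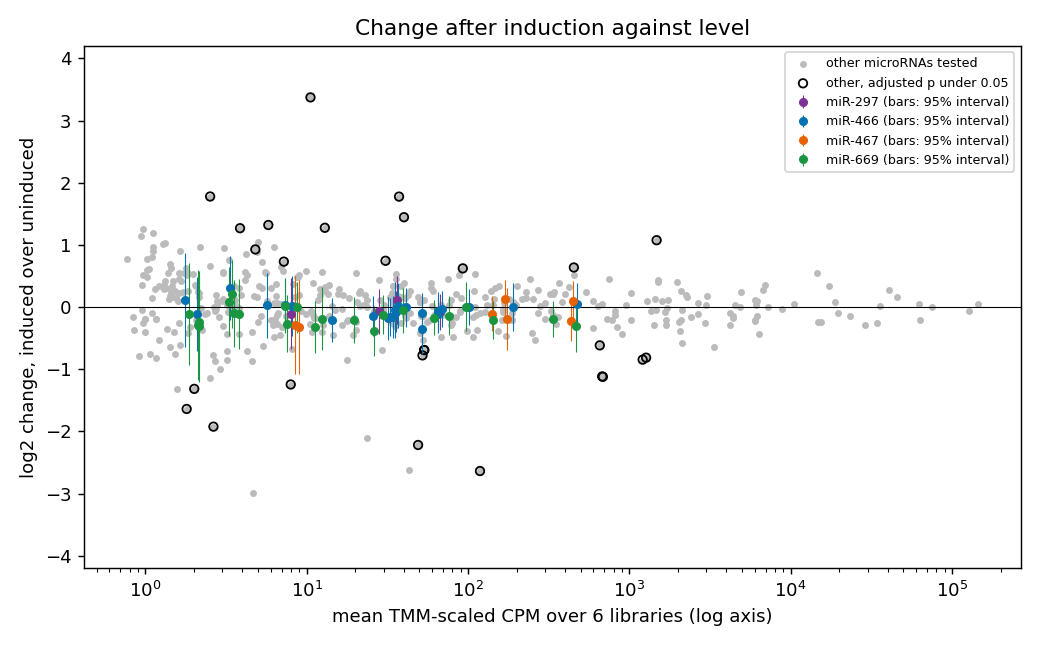
Log2 change after induction against mean TMM-scaled CPM (log axis) for the members, coloured by family with 95% intervals, and for other tested microRNAs in grey, with black rings where the adjusted p was under 0.05. All 57 members lie between -0.38 and 0.30, and 5 other names past a log2 change of 4 are off the axis.

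For the most abundant members the values, from the fit without a block, were as follows. The shared miR-466e-3p strand had a log2 change of 0.05 (SE 0.15, 95% interval -0.29 to 0.39). miR-467c-5p had 0.09 (SE 0.14, interval -0.23 to 0.41), and miR-467a-5p with miR-467b-5p -0.23 (SE 0.14, interval -0.54 to 0.09). The 3p strand shared by miR-467a and miR-467d had -0.19 (SE 0.22). miR-669a-3p with miR-669o-3p had -0.19 (SE 0.13, interval -0.48 to 0.10), and miR-467d-5p had 0.13 (SE 0.13, interval -0.17 to 0.43). With the trial as a block the SE of these strands was smaller, from 0.08 (miR-467a-5p) to 0.10 (miR-467c-5p), and none of them passed. The smallest blocked edgeR adjusted p among them was 0.0701, for miR-467a-5p. The means of miR-466g and miR-466h-5p were nearly equal in both groups, 191 CPM ± 25.7 and 191 CPM ± 35.4 for the first and 101 CPM ± 6.09 and 101 CPM ± 5.79 for the second (SD, n = 3 each), uninduced and induced.

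In miR-297, miR-297a-5p had a log2 change of -0.08 (SE 0.13) and the shared 3p strand 0.12 (SE 0.17). The largest positive values belonged to the faint miR-466j, with 0.30 (SE 0.23, edgeR adjusted p = 0.507), and miR-669h-3p, with 0.21 (SE 0.25). Next came miR-467d-5p, an abundant member (169 CPM on average), with 0.13, and the faint miR-466i-5p, with 0.12 (SE 0.34). From the other loci, miR-466i-3p had 0.02 (SE 0.16) and miR-466k -0.21 (SE 0.16).

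Trial numbers recur in both groups, and libraries with the same number deviated together, so the test was repeated with the trial as a block. Of the 57 members 3 then passed, all lower after induction, against 21.7% of all tested in either direction and 11.0% lower. They were miR-466c-5p, miR-669e-5p and the miR-669a-5p strand shared with miR-669p-5p. The share of members called was below both of these.

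miR-466c-5p, from 3 mir-466c hairpins of the intron, had 56.6, 67.1 and 50.4 CPM uninduced and 48.1, 51.2 and 36.5 induced. Its log2 change was -0.36 (SE 0.18, edgeR adjusted p = 0.279) without the block and -0.36 (SE 0.09, edgeR adjusted p = 0.0174) with it. miR-669e-5p had 31.0, 34.1 and 24.1 CPM uninduced and 21.6, 26.2 and 20.6 induced. Its log2 change was -0.38 without the block (SE 0.18, edgeR adjusted p = 0.260) and with it (SE 0.10, edgeR adjusted p = 0.0236). In each of these the groups overlap, and the induced library is the lower one within every trial.

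For the miR-669a-5p strand, whose levels are given above, the log2 change was -0.30 (SE 0.19, edgeR adjusted p = 0.410) without and -0.28 (SE 0.09, edgeR adjusted p = 0.0373) with the block. With both libraries of 1 trial left out, the blocked call of miR-466c-5p held without trial 1 (edgeR adjusted p = 0.0217) and was lost without trial 2 (0.138) or trial 3 (0.122). Its log2 changes were then -0.43, -0.35 and -0.33. The call of miR-669e-5p was lost without trials 1, 2 or 3 (edgeR adjusted p = 0.168, 0.135 and 0.0980), with log2 changes of -0.30, -0.38 and -0.46. That of miR-669a-5p was lost likewise (edgeR adjusted p = 0.199, 0.156 and 0.114), with log2 changes of -0.30, -0.22 and -0.35. These fits hold 2 libraries a group, and the direction was the same in each. The 3p arm miR-669e-3p had 13.5, 11.3 and 13.0 CPM uninduced and 12.0, 8.86 and 9.33 induced, a log2 change of -0.32 (SE 0.19, blocked edgeR adjusted p = 0.0835).

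Small negative values were frequent among the members. The log2 change was below 0 for 42 of 57, against 47.8% of all tested, and 25 of 57 were lower in all 3 trials, against 29.5%. With RLE factors 46 and with library totals 39 of 57 were below 0. Only 2 members were higher in all 3 trials, the 3p strand of miR-297 and miR-467d-5p, against 29.0% of all tested. The members' median log2 change was -0.10 and that of all tested 0.02. The members come from neighbouring hairpins and partly shared reads and are not independent of each other, so these shares are a description. By family, 13 of 23 tested measurements of miR-669 were lower in all 3 trials, 6 of 23 of miR-466, 4 of 7 of miR-467 and 2 of 4 of miR-297.

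For 4 members the groups did not overlap, all lower, against 11.6% of all tested in that direction: miR-669c-5p, miR-669l-5p, miR-466p-5p and miR-466k. miR-669l-5p had 64.9, 66.7 and 63.2 CPM uninduced and 57.2, 59.3 and 56.7 induced, a log2 change of -0.17 (SE 0.13, edgeR adjusted p = 0.505). miR-669c-5p had 151, 168 and 143 uninduced and 140, 143 and 118 induced, with a log2 change of -0.20 (SE 0.14, edgeR adjusted p = 0.431). Neither they nor the other 2 passed the test with or without the block.

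Summed by family, miR-669 had 1459, 1595 and 1334 CPM in uninduced and 1303, 1313 and 1189 CPM in induced trials 1, 2 and 3, a ratio of means of 0.867. These groups do not overlap with TMM factors, but they do with RLE factors and with library totals alone, where the ratios were 0.856 and 0.873. miR-467 had 1494, 1373 and 1396 CPM uninduced and 1408, 1386 and 1282 induced (ratio 0.956). miR-466 had 1379, 1328 and 1496 uninduced and 1475, 1226 and 1421 induced (ratio 0.981), and miR-297 136, 147 and 139 uninduced and 135, 141 and 139 induced (ratio 0.982). In the last 3 families the groups overlap under all 3 scalings. Sums over members chosen with results known are given without a test.

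**Figure D4:**
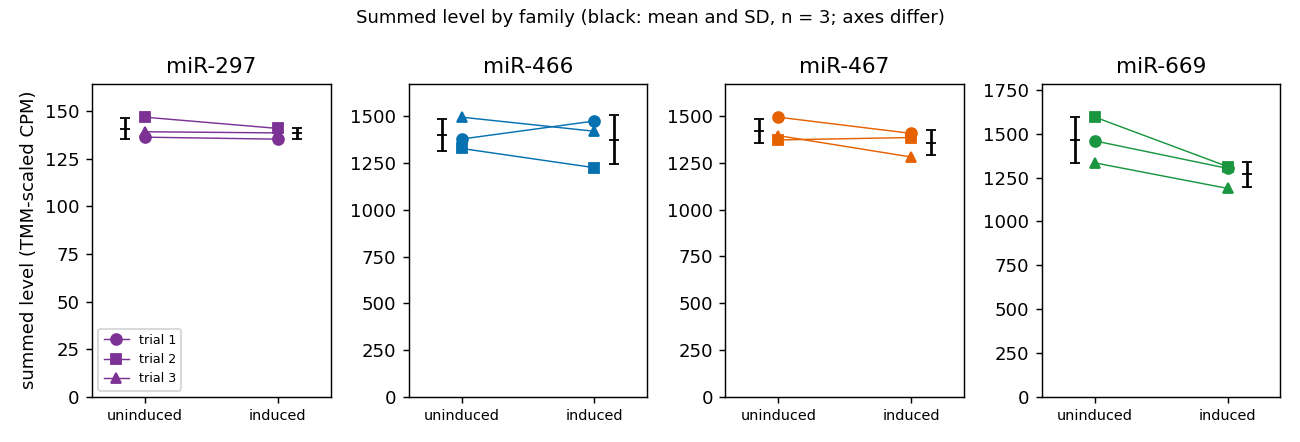
Summed TMM-scaled CPM of each family (axes start at 0 and differ), with lines joining the libraries of a trial and the mean and SD (n = 3) in black. The miR-669 lines all slope down, from 1459, 1595 and 1334 to 1303, 1313 and 1189 CPM, while the other families overlap between groups.

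Members also differed between trials, in a way that the groups shared. Of the 37 members of at least 10 CPM, the log2 difference of trial 3 from trial 1 ran from -0.74 to 0.53 in the uninduced and from -0.69 to 0.45 in the induced libraries. The differences measured in the 2 groups followed each other, with a Pearson r of 0.81 (Spearman rho 0.72) across the 37 members, and the sign was the same for 27 of them. For trial 2 against trial 1, r was 0.66. Across all 323 tested names at that level r was 0.65 and 0.64. The points of a plot share 4 libraries, and members are neither independent nor equally deep.

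**Figure D5:**
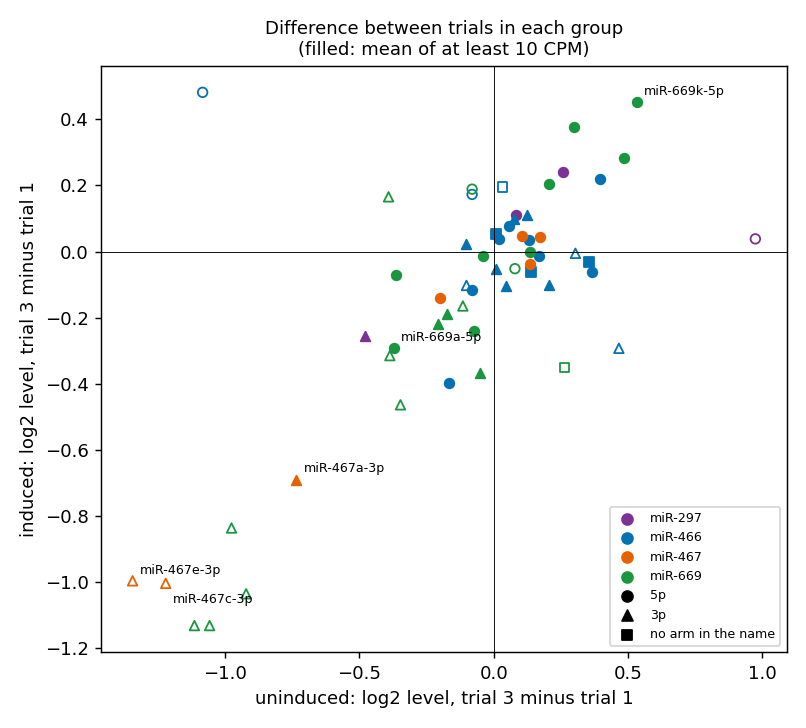
Log2 level in trial 3 minus trial 1 in the uninduced (x) and induced (y) libraries for the 57 tested members, coloured by family, with symbols by arm and filled where the mean was at least 10 CPM. The points run along the diagonal, and the lower left corner holds 3p strands such as miR-467a-3p at -0.74 and -0.69.

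Most 3p strands of miR-467 and miR-669 were lower in trial 3 than in trial 1, and most of miR-466 were not. Of 24 tested 3p measurements, 15 were lower in both groups and 2 were higher in both. The 15 include 3 of 3 of miR-467, 10 of 11 of miR-669 and the 1 tested strand of miR-297, but 1 of 9 of miR-466. Of the 10, only miR-669a-3p (335 CPM on average), miR-669f-3p (19.6 CPM) and miR-669e-3p (11.3 CPM) reached 10 CPM. For miR-669e-3p the log2 difference was -0.05 uninduced and -0.37 induced. The rest are faint strands such as miR-669b-3p (3.28 CPM) and miR-669m-3p (1.86 CPM). The 10 also count both miR-669d-3p and miR-669d-2-3p, which differ by at most 1 read in every library. The 3 of miR-467 include miR-467c-3p and miR-467e-3p, whose counts are close in most libraries. Whether 3p strands of other microRNAs were also lower in trial 3 was not tested. In miR-466, miR-466i-3p and miR-466n-3p were higher in both and 6 went opposite ways in the groups, among them the leading miR-466e-3p (log2 differences of 0.20 uninduced and -0.10 induced). Of 28 tested 5p measurements, 7 were lower in both and 13 higher in both. miR-467c shows it within 1 hairpin. Its 3p arm had 13.9, 10.0 and 5.95 CPM in uninduced and 11.0, 7.17 and 5.51 CPM in induced trials 1, 2 and 3, and its log2 change after induction was -0.32 (SE 0.34). The reads of 5p over 3p were 32.5, 36.1 and 83.2 uninduced and 42.7, 64.4 and 83.4 induced, so trial 3 had the highest ratio in both groups.

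miR-467e had ratios of 10.7, 14.6 and 30.6 uninduced and 12.9, 18.9 and 26.5 induced, also highest in trial 3. Its 3p arm had 122, 89 and 56 reads uninduced and 127, 63 and 72 induced. That is close to miR-467c-3p, with 130, 90 and 65 reads uninduced and 133, 64 and 75 induced. Whether these 3p arms share reads was not tested, so the ratios of miR-467c and miR-467e may not be separate observations. For miR-467a, whose arms share reads with miR-467b and miR-467d, the ratios were 2.02, 2.88 and 2.93 uninduced and 2.02, 2.63 and 2.95 induced. In miR-669a the order was another one, with 1.36, 1.76 and 1.19 uninduced and 1.25, 1.60 and 1.17 induced, so trial 2 was highest in both groups. What differed between the trials is not given in the sources used here, and its part in these ratios was not tested.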

How the data were processed

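The file deposited by the authors gives read counts for each of the 6 libraries, not normalized, with 1 entry per mature microRNA and precursor. Trim Galore 0.4.0, DESeq2 (listed as 2.1.8.0) and mm10 are named in the submitters' processing notes, and the design text states alignment to miRBase. For the counter, the miRBase release and the treatment of reads with several matches, details were not given in the sources used here, so names of near-identical copies are uncertain. Libraries were made from 1000 ng total RNA with the TruSeq small RNA kit, per the labels' protocols.

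The entry with the most reads was kept per name. Names of at least 10 reads within 1% in every library counted once as members, while the fit kept every name. edgeR 4.0.16 (R 4.3.3) used TMM, filterByExpr and robust quasi-likelihood tests (two-sided, group alone, adjusted p at 0.05 over 525 names), checked on simulated counts. SE and 95% intervals derive from its F statistic. DESeq2 1.42.0 and limma 3.58.1 were alternatives, as were other scalings, entries, filters and left-out libraries. After subtraction of group means, libraries of the same trial correlated by 0.33, 0.45 and 0.53, which pairs them. Members, lists and tests were chosen with earlier results of these data known. Members were named by abundance in the set and in each family and arm, by calls in either fit, by largest change, by opposite arm and by locus. miR-669l-5p, miR-669c-5p, miR-466p-5p, miR-467e, miR-466m and other names outside that rule were chosen after their values were seen. Over the members, any 2 libraries of a group differed beyond counting noise, with a chi-square of at least 8.00 for each degree of freedom.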

Additional observations from a re-analysis of the deposited data

How the results depend on the processing

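With the trial as a block, which pairs the libraries, 3 of the 57 tested members passed (edgeR), and 1 with trial 1 left out as well. Other scalings, entries, filters and tools, and leaving out each library in turn, were run without the block, and 0 passed there. They were not run with the block and thus do not bear on the 3 blocked calls. Fewer libraries leave fewer degrees of freedom, so lost calls do not bear on stability. Without both libraries of trial 2 or trial 3, 0 passed with the block. Leave-one-out sums, which with 3 libraries cannot leave the SD, were 136 to 144 CPM uninduced and 137 to 139 induced for miR-297, 1376 to 1422 and 1314 to 1446 for miR-466, 1388 to 1457 and 1322 to 1382 for miR-467, and 1381 to 1552 and 1240 to 1294 for miR-669.

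How shared reads were counted moved the levels most. Summing all entries of a name gave, uninduced and induced, 312 and 302 CPM for miR-297, 1870 and 1773 for miR-466, 6044 and 5289 for miR-467, and 8861 and 7434 for miR-669. Counting each name gave 211 and 214, 3366 and 3393, 2077 and 1923, and 2333 and 1999. Over all libraries the 5p share was then 48.7% for miR-297, 16.2% for miR-466, 81.8% for miR-467 and 66.2% for miR-669. A tolerance of 10% for shared reads, chosen after seeing the data, gave 62 measurements, and for miR-466 1197 and 1186 CPM with 29.1% 5p. Whether entries repeat the same reads or split them was not tested, since the authors' treatment of reads with several matches is not given.

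Of 378 log2 changes recomputed for 21 members, 30 in 7 members turned sign, all without a call. Leaving out 1 library, the values ran from -0.037 to 0.16 for miR-466e-3p, -0.017 to 0.19 for miR-467c-5p, -0.096 to 0.13 for miR-466g, -0.030 to 0.18 for miR-297a-3p, -0.045 to 0.028 for miR-466h-5p, -0.17 to 0.30 for miR-466i-5p and -0.10 to 0.11 for miR-466i-3p. With the block and without 1 trial, miR-466e-3p gave -0.084 (trial 1), miR-467c-5p -0.026 (trial 2), miR-466g 0.042 (trial 2) and 0.0015 (trial 3), miR-466h-5p -0.081 (trial 2), miR-466i-5p -0.36 (trial 3) and miR-466i-3p -0.0040 (trial 3). For miR-466g, library totals gave 0.023 and the lowest entry 0.0029. For miR-466h-5p, RLE gave -0.016, no filter -0.0048, summed entries -0.0024, collapsed names -0.0088 and DESeq2 -0.026, and DESeq2 gave -0.0049 for miR-466i-3p. The cause was not tested. The block changed no other call among the members. Depth limits the faint members: at 0 reads, up to 0.215 to 0.345 CPM per library is allowed.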
